A study of Mus musculus with 4 samples.

Results

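The AP-1 transcription factor genes were examined in the blood of mice given naringenin (Nar), a flavonoid, or buffer. Members were the genes listed under the symbols Fos, Fosb, Fosl1, Fosl2, Jun, Junb, Jund, Atf3, Batf and Maff with values in all libraries. Of these 10 symbols, 9 had values, out of 17823 genes with values in all, and Fosl1 was listed without any value. RNA-seq was performed on 4 blood libraries of C57BL/6 mice, which the labels give as adult and the study calls aging. The control group (Ctrl, n = 2) received PBS for 30 days and the Nar group (n = 2) received Nar for 30 days. Nar was injected into the tail vein, and the paper gives no route for the PBS. The libraries carry the numbers 1 and 3 in each group, and values are given in that order, Ctrl before Nar. As blood holds many cell types, a lower level from fewer cells of a type cannot be told apart from less RNA per cell.

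AP-1 is a pair of bZIP proteins that grip each other through a leucine zipper and bind DNA through the adjoining basic region. Jun proteins can pair with themselves or with Fos proteins, whereas Fos proteins need a partner, and Atf3, Batf and the small Maf protein Maff belong to related bZIP families. Several AP-1 genes are immediate early genes, which are transcribed within minutes of a stimulus into short-lived transcripts. Jund is known as the member that many cells transcribe steadily. In blood, Fos and Junb are abundant in activated myeloid cells.

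The promoters of Fos and Junb, the most abundant members that were called lower, are given from RefSeq (GRCm38.p6), 5′ to 3′ on the strand of the gene, from 250 bases before to 50 bases after the annotated start. Capitals mark TGACG, the core of the CRE bound by CREB and ATF proteins, and TATAA, the core of a TATA box, searched on both strands.
Fos promoter, chr12:85473640-85473939, plus strand: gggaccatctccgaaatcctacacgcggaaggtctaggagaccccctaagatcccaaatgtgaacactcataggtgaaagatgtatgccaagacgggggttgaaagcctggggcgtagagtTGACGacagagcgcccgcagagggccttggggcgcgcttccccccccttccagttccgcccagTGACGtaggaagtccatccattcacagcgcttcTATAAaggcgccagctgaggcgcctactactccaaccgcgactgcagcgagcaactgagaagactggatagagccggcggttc
Junb promoter, chr8:84978699-84978998, minus strand: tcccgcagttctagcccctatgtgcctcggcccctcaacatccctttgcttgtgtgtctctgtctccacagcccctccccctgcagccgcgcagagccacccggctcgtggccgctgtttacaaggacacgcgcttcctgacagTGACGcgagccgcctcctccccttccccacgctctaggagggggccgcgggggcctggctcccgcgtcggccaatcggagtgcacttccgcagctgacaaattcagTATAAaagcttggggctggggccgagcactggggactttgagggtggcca
In Fos, TGACG began at positions -129 and -66 and TATAA at position -33 relative to the start. In Junb, TGACG began at position -106, and TATAA at position 1. The GENCODE M21 transcript of Junb starts 30 bases downstream of the RefSeq start used here. Of the 10 genes, 9 had a promoter in the table. Maff has 3 windows in the table, one for each annotated start, and was counted where any of them matched, so its chance of a match is higher than that of a single promoter. TGACG was found in 6 genes (Fos, Fosb, Junb, Atf3, Batf and Maff) and in 20.8% of all 32851 promoters of the same length. TATAA was found in 2 (Fos and Junb) and in 24.9% of all promoters. GGGCGG, the box bound by Sp1, was found in 7 and in 35.7% of all promoters. The full CRE, TGACGTCA, which contains TGACG, was found in 1 of the 3 windows of Maff and in 1.79% of all promoters. TGANTCA, the AP-1 site itself, and the CArG box bound by SRF were found in none of the 9 and in 7.81% and 1.63% of all promoters. Sites more than 250 bases before the start were not searched, so an absence holds for these windows only. The Jund window held neither TGACG nor TATAA, and the GENCODE transcript of Jund starts 1210 bases downstream of the RefSeq start used for it. For Fosl2 the GENCODE transcript starts at 32135801, upstream of the RefSeq start at 32136472. The Fosl2 window thus lies within the span of that transcript.

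The genes also differ in structure. On GRCm38.p6, Jun (chromosome 4, 95049036 to 95052222, minus strand), Junb (chromosome 8, 84976909 to 84978748, minus strand) and Jund (chromosome 8, 70697739 to 70700616, plus strand) have 1 exon each in GENCODE M21. Fos (chromosome 12, 85473890 to 85477274, plus strand), Fosb, Fosl2 and Atf3 have 4 exons each, and Batf and Maff have 3. Batf lies on the same chromosome as Fos (85686720 to 85709087, plus strand). Jund has the transcript richest in G and C among the 10, with 67.1%, against 62.6% for Junb and 51.9% for Fos. The annotation places Junos opposite Jun and Gm11175 opposite Jund. The sources do not state that counting used strand, so reads of these pairs cannot be told apart.

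ATTTA, the pentamer found in AU-rich elements of unstable transcripts, occurred 4 times in the 3′ UTR of Fos, 2 times in that of Junb and 1 time in that of Jund. Per kilobase of 3′ UTR this was 4.91 for Fos, 4.12 for Junb, 3.28 for Maff, 3.24 for Jun, 2.53 for Atf3, 1.88 for Jund, 1.72 for Fosl2, 1.57 for Fosl1 and 0.466 for Fosb, while Batf had none. The median of 5038 tested genes outside AP-1 was 1.17 per kilobase. The 30 bases around the densest run in Fos and around the single match in Jund are shown to contrast both genes, with ATTTA in capitals.
Fos 3′ UTR, chr12:85477100-85477129, plus strand: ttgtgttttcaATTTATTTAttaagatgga
Jund 3′ UTR, chr8:70700358-70700387, plus strand: ccgattccgccctATTTAtgtttctactcg
Fos carries overlapping copies in this window and Jund a single one. The longer element TTATTTATT was present in Fos, Fosl2 and Maff, and in 6.03% of the tested genes outside AP-1.

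Expression was deposited as FPKM, that is fragments scaled by transcript length and by the total mapped, rounded to 2 decimals. Haemoglobin genes made up 92.6% to 95.1% of the summed FPKM in Ctrl and 95.7% to 96.4% in Nar, and all other genes share the remainder. Depth was not stated, and low values of short genes gave a weak estimate of it. The product of FPKM and transcript length clustered at multiples of 44.2 to 48.0, taken as 1 fragment, with a mean cosine of 0.237 to 0.399, where 1 would be exact multiples. The next best step was smaller in each library and scored 0.189 to 0.263. Fragment numbers given below use the mean step of 45.75 for all libraries, are rough, and would be larger with the smaller step. Differences were tested on log2(FPKM + 0.1) in 5339 genes, those that averaged 0.5 FPKM or more over the libraries. Over these genes the median log2 fold change came to -1.07, so a value near -1 is that of a typical gene on this scale.

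Most AP-1 genes were lower in Nar blood on the deposited scale, and Jund was called on no scale. The log2 fold change of Jund was -0.10 on the deposited scale (95% interval -1.21 to 1.02) and 1.07 after median-of-ratios scaling (95% interval 0.12 to 2.03). Fos, Fosb, Fosl2, Jun, Junb, Atf3 and Batf were lower with limma at a Benjamini-Hochberg adjusted p-value under 0.05, which is 7 of the 8 members tested, and 0 were higher (17 genes of all tested were higher at an unadjusted p-value under 0.05, none of them a member). Of all tested genes, 39.6% were called lower and 0.187% higher. The number of members called was 2 of 8 after median-of-ratios scaling, 4 of 8 with haemoglobin genes taken out, and 0 without either control library. The 10 neutrophil markers were all called lower too, with a median log2 fold change of -3.67. The median log2 fold change of the 9 members was -2.62, against -1.07 for all tested genes, and it would be -3.01 if Maff, which was listed at 0 in both Nar libraries, were placed lowest. The members' median was -1.08 with a pseudocount of 1, where that of all tested genes was -0.62, and -3.20 with a pseudocount of 0.01. The fold changes of the scarce members depended most on it. With pseudocounts of 1 and 0.01, the log2 fold change was -1.08 and -4.09 for Fosb, -1.50 and -3.63 for Fosl2, -1.08 and -2.64 for Jun, -0.96 and -3.44 for Atf3, and -0.72 and -2.18 for Batf, and all 5 were called lower in limma with each. Both Nar libraries lay below both Ctrl libraries in 8 of the 9 members, as in 78.3% of all tested genes. Fos, Junb and Jund averaged 0.5 FPKM or more in each group, as did 70.2% of tested genes, whereas Fosb, Fosl2, Jun, Atf3 and Batf passed the filter through the controls.

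**Figure D1:**
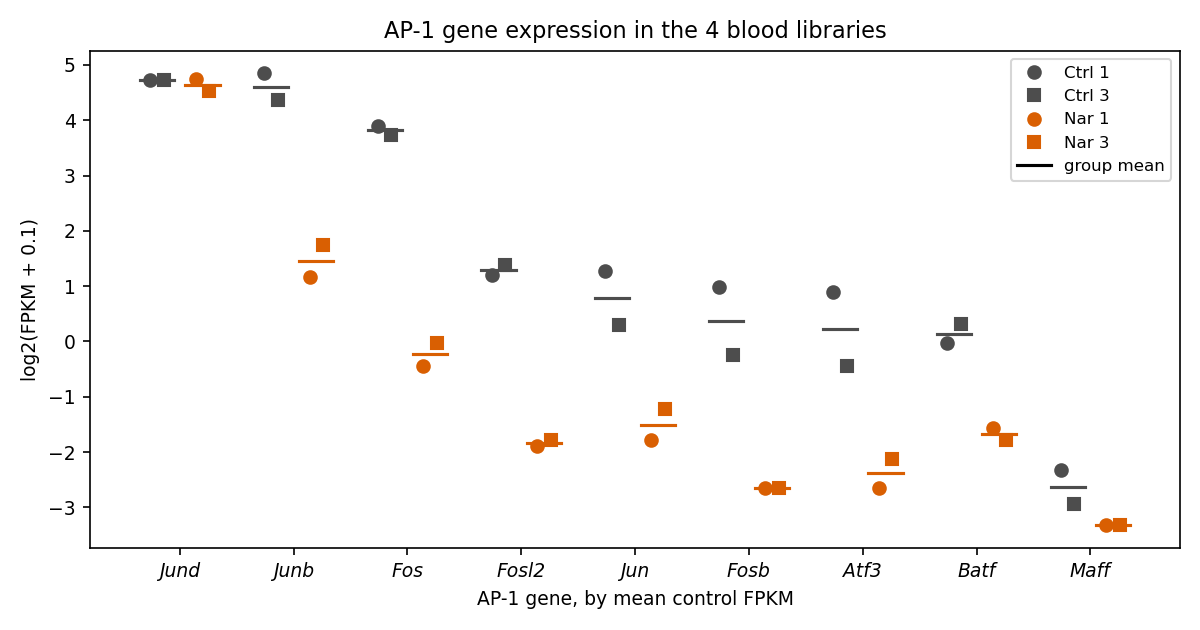
Expression of the 9 AP-1 genes with values, as log2(FPKM + 0.1), in each of the 4 blood libraries; circles are libraries numbered 1, squares libraries numbered 3, and lines the group means of 2. Both Nar points lie below both Ctrl points for every gene but Jund, whose values ran from 22.89 to 26.6 FPKM.

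Fos, the founding member of its family and the partner of Jun in the classical AP-1 pair, had a log2 fold change farther from 0 than any other member at the pseudocount of 0.1. By the ratio of the group means the order of Fos and Fosb depended on 1 control library. The ratio for Fosb was 21.8 with both controls, 12.3 without Ctrl 1 and 31.3 without Ctrl 3, and rests on about 4.96 fragments in each Nar library, while that for Fos was 18.5, 17.5 and 19.5. Fos had 14.85 and 13.27 FPKM in the Ctrl libraries and 0.64 and 0.88 FPKM in the Nar libraries. The Nar libraries were both far below the controls, and the controls were close to each other. The means were 14.1 ± 1.12 FPKM (SD, n = 2) in Ctrl and 0.76 ± 0.17 (SD, n = 2) in Nar, an 18.5-fold ratio. The log2 fold change was -4.05 ± 0.417 (standard error, adjusted p = 0.00238 in limma), and 0.281% of all tested genes had a lower one. About 684 and 611 fragments stood behind the Ctrl values and about 29.5 and 40.5 behind the Nar values.

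Fosl2, which encodes Fra-2, had 2.2 and 2.5 FPKM in the Ctrl libraries and 0.17 and 0.19 FPKM in the Nar libraries. Within each group these values were nearly equal, and the groups were wide apart. The log2 fold change was -3.13 ± 0.35 (standard error, adjusted p = 0.00247 in limma). Fosb, which encodes FosB and its truncated form ΔFosB, was listed at 1.88 and 0.74 FPKM in the controls and 0.06 FPKM in each Nar library. Its controls differed from each other by a larger ratio than those of Fos or Fosl2, yet both lay above the Nar libraries. The log2 fold change was -3.01 ± 0.549 (standard error, adjusted p = 0.00879 in limma).

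The Jun family was split. Junb, which encodes a Jun protein that is induced in activated leukocytes, had 28.7 and 20.55 FPKM in the Ctrl libraries and 2.15 and 3.24 FPKM in the Nar libraries. In Ctrl blood it was as abundant as Jund, and in Nar blood it was well below it. The means were 24.6 ± 5.76 FPKM (SD, n = 2) in Ctrl and 2.7 ± 0.771 (SD, n = 2) in Nar, with a log2 fold change of -3.15 ± 0.489 (standard error, adjusted p = 0.00553 in limma).

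Jun, which encodes c-Jun, was much less abundant and had 2.32 and 1.13 FPKM in the Ctrl libraries and 0.19 and 0.33 FPKM in the Nar libraries. The groups did not overlap, although the controls differed from each other by more FPKM than Ctrl 3 and Nar 3 did. The log2 fold change was -2.29 ± 0.441 (standard error, adjusted p = 0.0108 in limma).

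Jund, which encodes JunD, had 26.43 and 26.31 FPKM in the Ctrl libraries and 26.6 and 22.89 FPKM in the Nar libraries. The groups overlapped, with Nar 1 above both controls and Nar 3 below them. The means were 26.4 ± 0.0849 FPKM (SD, n = 2) in Ctrl and 24.7 ± 2.62 (SD, n = 2) in Nar. The log2 fold change was -0.10 ± 0.492 (standard error, adjusted p = 0.869 in limma), with a 95% interval from -1.21 to 1.02. Of all tested genes, 92.5% had a lower log2 fold change than Jund.

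The related bZIP members were scarce. Atf3, a stress-induced factor that often represses inflammatory genes, had 1.77 and 0.64 FPKM in the Ctrl libraries and 0.06 and 0.13 FPKM in the Nar libraries, with a log2 fold change of -2.62 ± 0.565 (standard error, adjusted p = 0.0154 in limma). Its Nar values rest on about 2.6 and 5.64 fragments. Batf, a partner of Jun proteins in lymphocytes, had 0.88 and 1.14 FPKM in the Ctrl libraries and 0.24 and 0.19 FPKM in the Nar libraries. Its log2 fold change of -1.81 ± 0.409 (standard error, adjusted p = 0.0176 in limma) was the smallest among the members called, and 9.65% of all tested genes had a lower one. Maff, a small Maf protein without an activation domain, was listed at 0.1 and 0.03 FPKM in the controls and 0 in both Nar libraries, and was too low to be tested. About 4.28 and 1.28 fragments stood behind its Ctrl values, so no level could be set for it.

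Each library was left out in turn, which leaves 1 library in a group and assumes that it varies like the other group. Without Ctrl 1 or without Ctrl 3, 0 of 5339 genes passed the adjusted threshold in limma, so these fits say nothing about the members in particular. The 7 members all had an adjusted p of 0.0826 in limma without Ctrl 1 and of 0.0871 without Ctrl 3. All 7 had an unadjusted p-value under 0.05 in both fits, as had 2669 genes that were lower and 13 that were higher without Ctrl 1, and 2092 and 41 without Ctrl 3. Without Nar 1, Fos, Fosb and Fosl2 were called, and without Nar 3, Fos, Fosb, Fosl2, Jun and Junb were, against 4.76% and 3.99% of all tested genes called lower. Over the 4 fits the log2 fold change ran from -4.26 to -3.85 for Fos, from -3.22 to -3.04 for Fosl2, from -3.44 to -2.87 for Junb and from -1.98 to -1.64 for Batf. It ran more widely for the members whose controls differed, from -3.63 to -2.39 for Fosb, from -2.78 to -1.80 for Jun and from -3.29 to -1.95 for Atf3, and in each the value closest to 0 was the one without Ctrl 1. With the replicate number as a block the same 7 members were called, against 33.8% of all tested genes called lower, and with the numbers crossed between groups, an alternative added after seeing the data, against 60.1%.

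The result was then examined after scaling the libraries so that the typical gene was level. After median-of-ratios scaling the typical tested gene lay at -0.0016 on the log2 scale instead of -1.07, and the median of the 9 members at -1.78. Fos at -2.94 (standard error 0.408, limma adjusted p = 0.0179) and Fosl2 at -2.16 (standard error 0.367, limma adjusted p = 0.036) were still called lower, against 0.599% of all tested genes. Fosl2 had passed the filter through the controls, and no other pseudocount was tried on this scale. Fosb at -2.24, Junb at -1.998, Atf3 at -1.78, Jun at -1.30 and Batf at -0.87 did not pass, with limma adjusted p-values of 0.119, 0.0864, 0.207, 0.233 and 0.41. On this scale the sign of Jund turned, to a log2 fold change of 1.07 ± 0.423 (standard error, adjusted p = 0.253 in limma), which did not pass either.

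When haemoglobin genes were taken out and the others rescaled, the median of all tested genes was -0.56. Fos at -3.53, Fosb at -2.68, Fosl2 at -2.68 and Junb at -2.60 were called lower there, with limma adjusted p-values of 0.000158, 0.0406, 0.00362 and 0.00295, against 5.01% of all tested genes. Of these, Fosb and Fosl2 had passed the filter through the controls, and no other pseudocount was tried here either. Jun at -1.83, Atf3 at -2.25 and Batf at -1.37 did not pass, with limma adjusted p-values of 0.0717, 0.0887 and 0.176. Jund was at 0.46 on that scale and was not called (limma adjusted p = 0.451). Each scaling moves all genes the same way, so that a gene near 0 changes sign and one far below 0 does not.

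**Figure D2:**
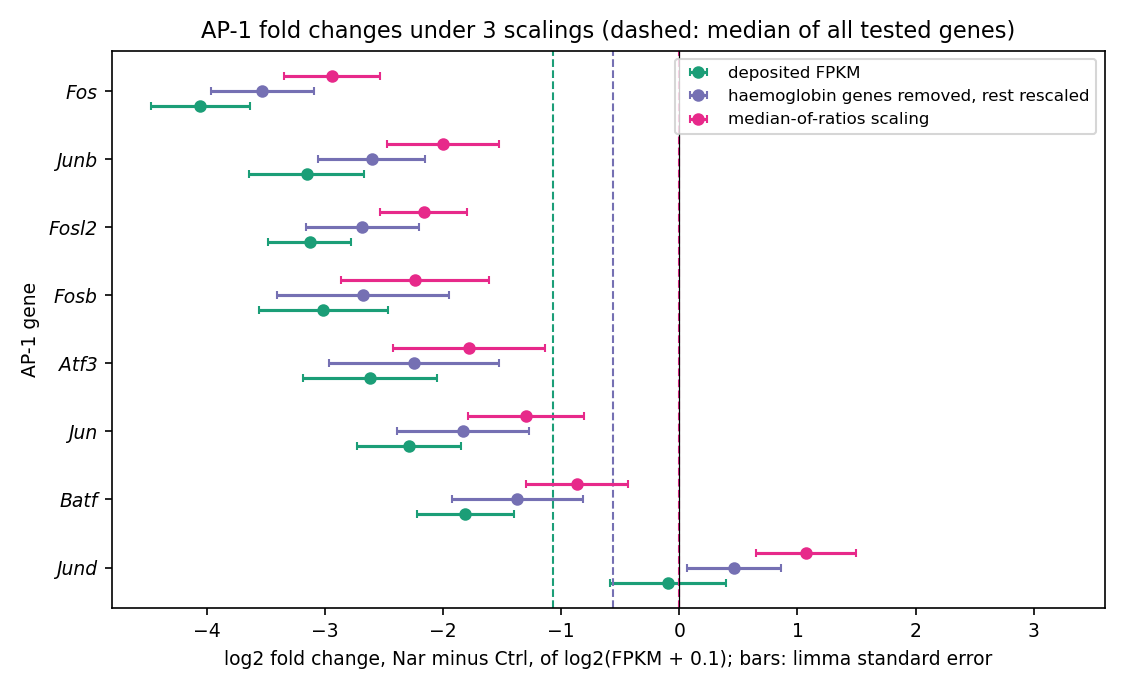
Log2 fold change (Nar minus Ctrl) of log2(FPKM + 0.1) for the 8 tested AP-1 genes under 3 scalings of the libraries, with bars for the limma standard error and dashed lines for the median of all tested genes under each scaling. Fos lies at -4.05, -3.53 and -2.94, while Jund lies at -0.10, 0.46 and 1.07.

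The make-up of the AP-1 transcripts was compared within each library. The sum over the 9 members was 79.1 and 66.3 FPKM in the controls and 30.1 and 27.9 FPKM with Nar. Without Jund the sums were 52.7, 40.0, 3.51 and 5.02 FPKM. These sums depend on the scale, since after median-of-ratios scaling the sum over all 9 was 56.2 and 41.2 in the controls and 40.6 and 46.6 with Nar, and the groups overlapped. Without Jund it was 37.5, 24.9, 4.74 and 8.38. The shares below do not depend on it. The Fos family accounted for 23.9% and 24.9% of the full sum in the controls and for 2.89% and 4.05% with Nar. The Jun family held 72.6%, 72.4%, 96.1% and 94.8% in the same order. The Jun family share differed by 23.0 percentage points between the group means, with SDs of 0.163 and 0.926 points. An exact two-sided permutation test over libraries gave p = 0.33 for every family, the smallest value that 2 against 2 libraries allow.

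Taken singly, a choice made after the values were seen, Jund accounted for 33.4% and 39.7% of the full sum in the controls and for 88.3% and 82.0% with Nar. Junb held 36.3%, 31.0%, 7.14% and 11.6%, and Fos held 18.8%, 20.0%, 2.13% and 3.15%. In Ctrl blood 3 genes shared most of the sum, and in Nar blood Jund alone did.

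**Figure D3:**
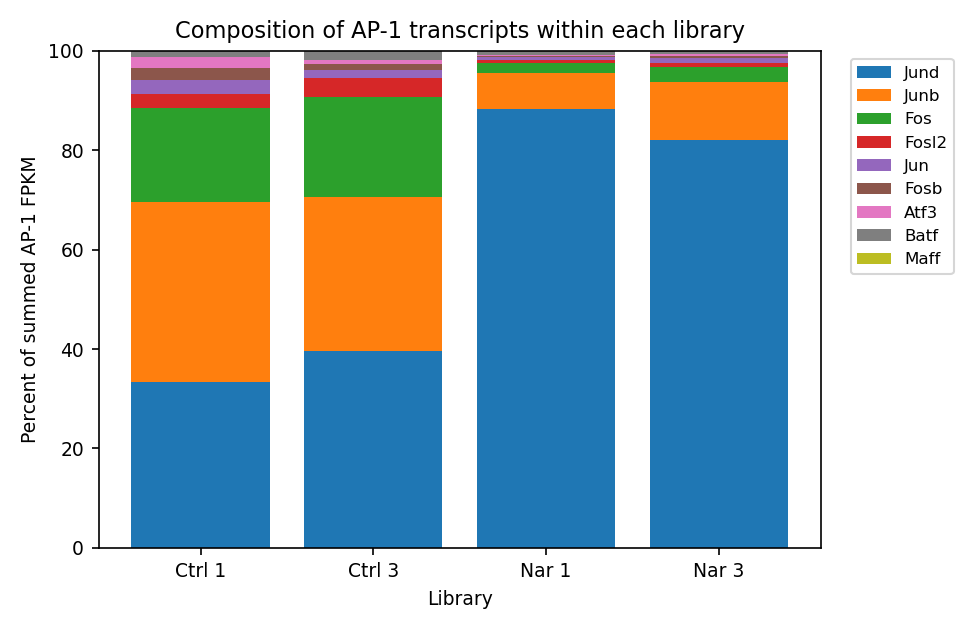
Share of each of the 9 AP-1 genes in their summed FPKM, in percent, for each of the 4 libraries; FPKM is per transcript length. Jund takes 33.4% and 39.7% in the Ctrl libraries and 88.3% and 82.0% in the Nar libraries.

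Relative to Jund in the same library, Fos was at 0.562 and 0.504 in Ctrl and 0.0241 and 0.0384 in Nar. Junb was at 1.09, 0.781, 0.0808 and 0.142 of Jund. Both ratios were lower in each Nar library than in each control. Jun was at 0.0808 and 0.055 of Junb in Ctrl and at 0.0884 and 0.102 in Nar, so that it was slightly higher in both Nar libraries. Fosb was at 0.127 and 0.0558 of Fos in Ctrl and at 0.0938 and 0.0682 in Nar, and these groups overlapped. Fos was lower relative to Junb, at 0.517 and 0.646 in Ctrl and 0.298 and 0.272 in Nar.

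In order of level per transcript length, Jund, Junb and Fos were the 3 most abundant members in every library. Junb and Jund changed places between the controls, where their means differed by less than the SD of Junb. Below them, Fosl2, Jun, Fosb, Atf3 and Batf had Ctrl means of at most 2.35 FPKM, and neighbours in that order did not differ beyond their spread. In Nar blood the same 5 genes had means from 0.06 to 0.26 FPKM.

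Neutrophil markers and some monocyte markers were called lower, as most members were, and most other cell type markers were not. All 10 neutrophil markers listed were called lower, against 39.6% of all tested genes, and their summed FPKM was 1352 to 1623 in Ctrl and 98.2 to 155 in Nar. Of 8 monocyte markers, 4 of the 7 tested were called lower, against the same 39.6%, and the sum was 82.8 to 96.7 in Ctrl and 10.0 to 27.4 in Nar. No defining marker of either list was at 0 in any library. After median-of-ratios scaling 5 of the 10 and 2 of the 7 were called lower, against 0.599% of all tested genes. No B cell, T cell, platelet or erythroid marker was called with limma, among 4, 5, 6 and 8 tested. Of 6 natural killer cell markers, Gzma, which encodes granzyme A, was called lower. The sums were 24.8 to 32.2 FPKM in Ctrl and 24.8 to 26.7 in Nar for B cells, 4.41 to 6.52 and 2.95 to 4.28 for T cells, 18.5 to 21.2 and 4.82 to 9.87 for natural killer cells, 627 to 2049 and 413 to 529 for platelets, and 6153 to 7162 and 6638 to 6744 for erythroid cells. Of 10 haemoglobin genes tested, 2 were called higher with limma, and 4 after median-of-ratios scaling, against 0.187% of all tested genes on either scale.

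Expressed per 1000 FPKM of neutrophil markers, Fos was at 9.15 and 9.81 in Ctrl and 6.52 and 5.68 in Nar. Junb was at 17.7, 15.2, 21.9 and 20.9, and Fosl2 at 1.36, 1.85, 1.73 and 1.23. On this measure Fos was lower in both Nar libraries, Junb was higher in both, and the groups overlapped for Fosl2. S100a8 and S100a9 held most of the neutrophil sum in every library. Ngp, Camp and Ltf, at log2 fold changes of -4.49, -4.36 and -4.17, were below Fos at -4.05, and the other neutrophil markers were above it. Only Cxcr2, at -2.90, was above Junb at -3.15. The direction of a ratio thus depends on the marker taken. Jund was at 16.3, 19.5, 271 and 148. Per 1000 FPKM of monocyte markers, Fos was at 179, 137, 23.4 and 87.7, and Fosl2 at 26.6, 25.9, 6.21 and 18.9, with both Nar libraries below both controls for each. The groups overlapped for Junb, with values from 78.6 to 346. F13a1 alone held 18.63, 46.56, 18.18 and 5.98 FPKM of the monocyte sums of 82.8, 96.7, 27.4 and 10.0 FPKM. The monocyte ratios thus rest largely on this gene in Ctrl 3, Nar 1 and Nar 3. Whether the groups stay apart for Fos and Fosl2 without it was not tested. The part of these cell types in the AP-1 differences was not tested.

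**Figure D4:**
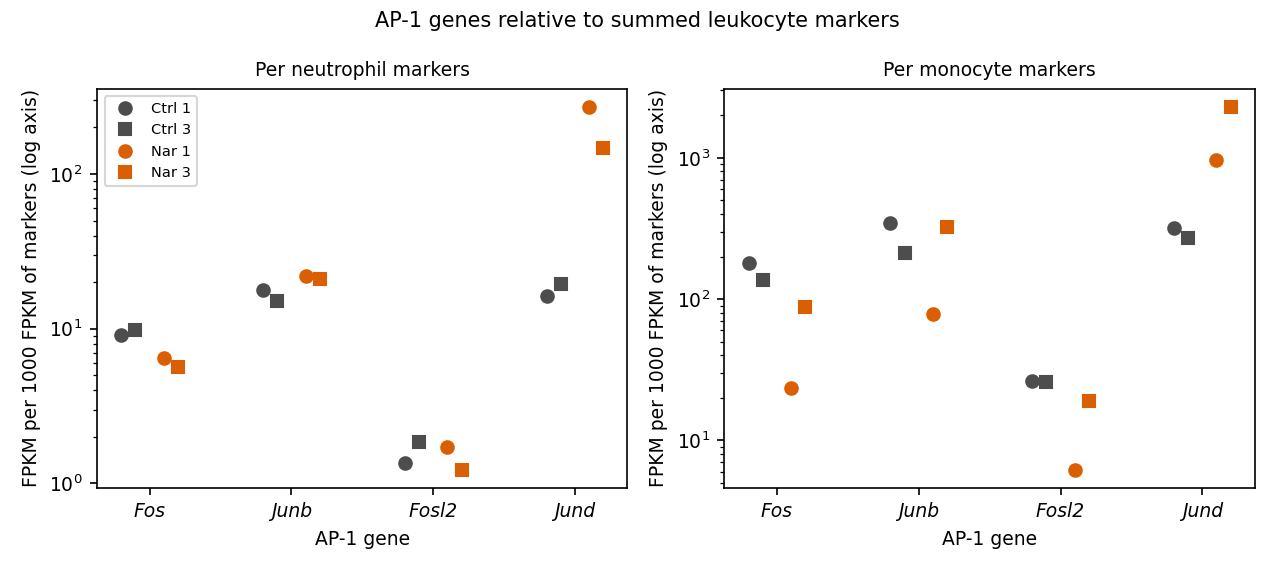
FPKM of Fos, Junb, Fosl2 and Jund per 1000 FPKM of summed neutrophil markers (left) and monocyte markers (right) in each library, on log axes. Per neutrophil markers, Fos runs from 5.68 to 9.81 and Junb from 15.2 to 21.9, whereas Jund runs from 16.3 to 271.

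The genes around AP-1 were examined by lists. Of 16 immediate early genes outside AP-1, 11 were tested and 7 were called lower with limma, against 39.6% of all tested genes, and none was called higher. They were Dusp1, Zfp36, Ier2, Ier3, Ier5, Btg2 and Klf6. Dusp1, a phosphatase that switches off MAP kinases, had 31.63 and 33.39 FPKM in the Ctrl libraries and 1.06 and 3.03 FPKM in the Nar libraries, with a log2 fold change of -4.10. Zfp36, whose protein speeds the decay of transcripts with AU-rich elements, was at -3.09. Myc, at -0.15 with a limma adjusted p of 0.73, had the highest value among those tested. Egr1, the zinc finger factor often induced with Fos, was listed at 0.35, 0.24, 0.07 and 0.11 FPKM and was not tested. After median-of-ratios scaling 0 of the 11 were called.

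Of 12 further bZIP genes, 5 were tested and 2 were called lower, a share close to the 39.6% of all tested genes. Bach1, a partner of small Maf proteins that represses haem-responsive genes, had a log2 fold change of -2.06 (limma adjusted p = 0.0108), and the small Maf gene Mafk had one of -1.33 (limma adjusted p = 0.023). Jdp2, a repressor that competes for AP-1 sites, was listed at 0.53, 1.19, 0.14 and 0.03 FPKM and was not tested. Atf4, the most abundant of them, was at -0.58 and did not pass.

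Upstream of AP-1, 5 of 13 tested kinase and promoter factor genes of a list of 17 were called lower, again close to the 39.6% of all tested genes. They were Mapk3 and Mapk14, which encode the kinases ERK1 and p38α, Map2k7, which encodes a kinase that activates JNK, and Srf and Elk4, whose products bind the serum response element of Fos. Their log2 fold changes were -1.58, -1.76, -1.16, -1.42 and -1.54. Map2k2, which encodes a kinase that activates ERK, was at -0.11 and did not pass.

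Among 10 genes of AP-1 cofactors and inhibitors, 7 were tested and 5 were called lower, against 39.6% of all tested genes, with log2 fold changes from -1.70 for Ep300, which encodes the coactivator p300, to -1.17 for the corepressor gene Ncor1. Tsc22d3, which encodes the AP-1 inhibitor GILZ, was at -0.67 and did not pass. Of 13 genes known as AP-1 targets, 11 had values, 5 were tested and 4 were called lower, against the same share. Plaur, the urokinase receptor gene, was at -2.96, Mmp9, the gelatinase B gene, at -2.87, Cd44 at -1.67 and Vim, the vimentin gene, at -1.59. Mt1, a metallothionein gene, was at -0.99 and did not pass. After median-of-ratios scaling none of the genes in these 4 lists was called.

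**Figure D5:**
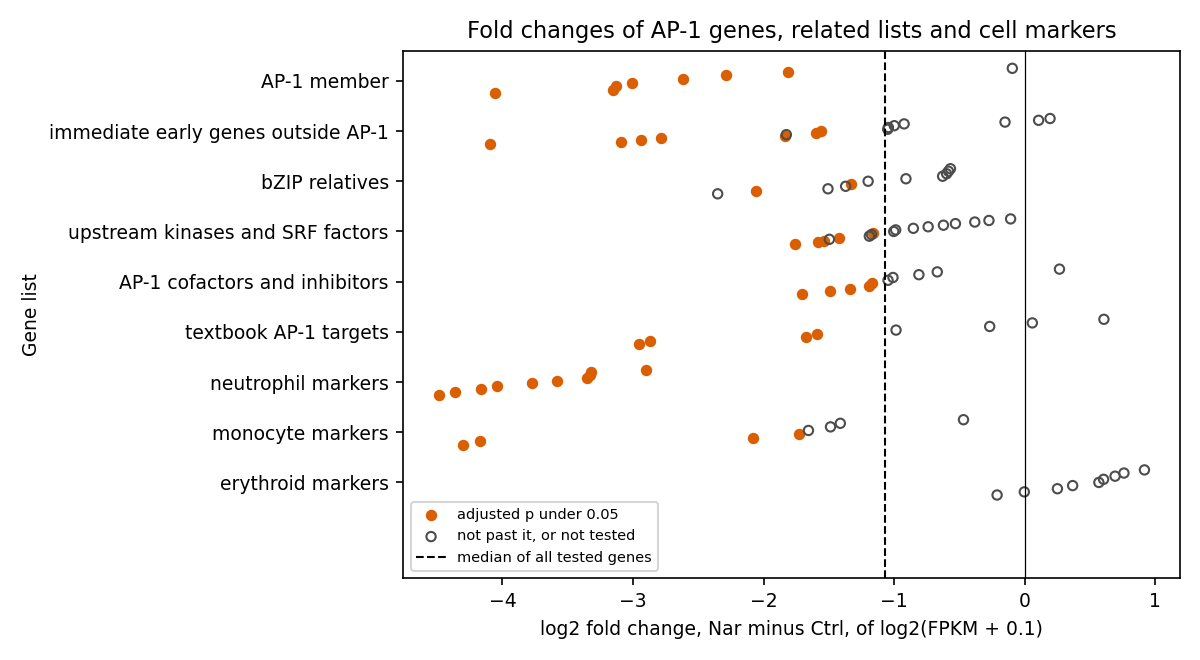
Log2 fold change (Nar minus Ctrl) of log2(FPKM + 0.1) for the genes of each list that were above 0 in at least 1 Nar library, with filled points for limma adjusted p-values under 0.05 and a dashed line at the median of all tested genes, -1.07. Maff, at 0 in both Nar libraries, is not drawn; of the 8 AP-1 genes drawn, those other than Jund lie at -1.81 or below, and the neutrophil markers at -2.90 or below.

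The genes whose profile over the 4 libraries was nearest to that of Fos, by Euclidean distance of centred log2(FPKM + 0.1), were Asprv1 (distance 0.0913), Mmp8 (0.295), Cd14 (0.318), Lcn2 (0.326) and Lilrb4a (0.391). Asprv1 was listed at 9.82, 9.47, 0.39 and 0.56 FPKM, against 14.85, 13.27, 0.64 and 0.88 for Fos. Of the 5, Mmp8 is in the neutrophil list and Cd14 in the monocyte list. Nearest to Jund were Usp4 (0.0963), Gabarapl2 (0.107), Selenok (0.109), Aqp9 (0.123) and Anp32e (0.129), with log2 fold changes from -0.18 to -0.01. None of these 5 passed in limma. The distances are a description over 4 libraries.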

How the data were processed

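Blood RNA-seq libraries of mice (2 Ctrl, 2 Nar) were used, and groups were taken from the sample labels. Per gene, FPKM made by the authors was used, which holds 2 decimals. The paper's methods name alignment of clean reads with bowtie-2 and DEGseq for DEGs, while the submitters' processing notes name TopHat2, Cufflinks and GRCm38. Versions and the counting of strand are not given in the sources used here. DEGseq needs read numbers and was not repeated.

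Values were compared on log2(FPKM + 0.1) in 5339 genes averaging 0.5 FPKM or more, using limma 3.58.1 in R 4.3.3 (lmFit, then eBayes with trend), and p-values were adjusted by Benjamini-Hochberg over all tested genes. Every adjusted p-value comes from limma. The steps were tested on simulated data. The members and lists were chosen with earlier results of these data known. Named genes were the members, genes of the lists, and the 5 genes nearest to Fos and to Jund. The value of 1 fragment was estimated from genes with a single GENCODE M21 transcript of 400 to 1000 bases and from the period of FPKM times length. The labels do not say that libraries of a group came from separate mice, so p-values measure the spread between these libraries. Fits with the replicate number as a block, without each library, with other pseudocounts, filters and scalings, and without the trend were made as alternatives. Plots were drawn with matplotlib 3.10.9.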

Additional observations from a re-analysis of the deposited data

How the results depend on the processing

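The numbers of genes past the adjusted p-value, over all tested genes, AP-1 members and related lists, were 2123, 7 and 23. They were 0, 0 and 0 in limma without the filter (at an unadjusted p-value under 0.05, 4852 genes were lower, 126 were higher and 7 members passed), 117, 2 and 4 at a mean FPKM of at least 5, 42, 2 and 0 with median-of-ratios scaling, and 281, 4 and 6 with haemoglobin genes removed. Leaving out one library gave 0 to 259, 0 to 5 and 0 to 4, and 0 in each without Ctrl 1 or without Ctrl 3. The median log2 fold change of members was -1.08 with a pseudocount of 1, -3.20 with 0.01, -1.78 with median-of-ratios scaling and -3.04 to -1.98 without one library. Jund turned positive with median-of-ratios scaling (1.07) and with haemoglobin genes removed (0.46), and it was called in no setting. Leaving out one library gave -0.20 to 0.012, the positive value without Nar 3. The Jun family share differed by 22.3 to 23.6 points without one library. The deviations of same-numbered libraries had a weak negative correlation across genes (-0.153), so the numbers were not taken as pairs. With the replicate block 1815 genes, 7 members and 21 related genes passed; a crossed block, chosen after seeing the data, gave 3233, 7 and 26. Among single-gene values with a test, 70 kept direction and side of the threshold, 35 kept direction and lost the threshold, and 3 turned. Of values with no test, for Maff and for shares, 26 stayed within 1 SD of replicates and 4, all for Maff, did not. Where no construction of the alternative explains a change, the cause was not tested. Estimated depth limits Maff, and the Nar values of Atf3, Fosb and Batf.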
